A study of Homo sapiens with 24 samples.

Results

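Expression of 10 genes of the bone morphogenetic protein (BMP) and transforming growth factor beta (TGF-beta) pathways was examined in 2 human epithelial cell lines with and without AMP-18. The genes were the ligands BMP7, TGFB1, TGFB2 and INHBA, the inhibitory SMAD genes SMAD6 and SMAD7, and the target genes ID1, ID2, ID3 and TGFBI. They were chosen by name, and every probe carrying 1 of these symbols was taken from the array table. This gave 13 probes of the 47323 on the array, and 8 of the 10 genes, through 11 probes, were among the 12221 genes that were bright enough to be tested. TGFB1 and INHBA were not.

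The tumor cells were SCC-61, a head and neck squamous carcinoma line, and the comparison cells were HaCaT, an immortal but nontransformed line of human skin keratinocytes. Cells of all 8 groups were first starved in medium with 1% serum. They were then given AMP-18, a gastric mucosal protein also called gastrokine-1, at 2 µg/ml for 24 h or 2 h, or left untreated for the same times. RNA from 3 samples of each of the 8 combinations of line, treatment and time was hybridized, giving 24 arrays, 12 for each line. Each line stands for its own kind of cell only, and the growth media of the 2 lines differed.

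BMPs and TGF-betas are secreted proteins that bind pairs of serine/threonine kinase receptors. BMP receptors phosphorylate one set of SMAD proteins and TGF-beta and activin receptors another, and both sets enter the nucleus with SMAD4 and act on their target genes. ID1, ID2 and ID3 are classic early targets of BMP signals and encode helix-loop-helix proteins that cannot bind DNA and hold other helix-loop-helix factors inactive. SMAD6 and SMAD7 are induced by the pathway and feed back on it, SMAD6 mainly on BMP signals and SMAD7 on both. In stratified epithelium TGF-beta restrains growth of keratinocytes, and ID proteins are linked to the undifferentiated state.

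Promoter sequences are shown for the 3 ID genes and SMAD6, the 4 genes with the largest changes between the time points in HaCaT. Each is the 250 bases before the gene's start from RefSeq (GRCh38.p14), written 5′ to 3′ on the strand of the gene. Capitals mark matches to 3 short SMAD motifs searched on both strands, which are GGCGCC (the GC-rich motif of BMP SMADs), CAGAC or its reverse complement GTCTG (the SMAD box) and the palindrome GTCTAGAC, none of which contains another.
ID1, chr20:31605039-31605288, plus strand: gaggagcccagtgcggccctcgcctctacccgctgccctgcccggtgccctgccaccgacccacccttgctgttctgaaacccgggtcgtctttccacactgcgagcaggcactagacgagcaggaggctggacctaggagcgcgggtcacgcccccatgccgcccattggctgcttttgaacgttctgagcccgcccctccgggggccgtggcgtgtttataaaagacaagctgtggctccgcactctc
ID2, chr2:8681806-8682055, plus strand: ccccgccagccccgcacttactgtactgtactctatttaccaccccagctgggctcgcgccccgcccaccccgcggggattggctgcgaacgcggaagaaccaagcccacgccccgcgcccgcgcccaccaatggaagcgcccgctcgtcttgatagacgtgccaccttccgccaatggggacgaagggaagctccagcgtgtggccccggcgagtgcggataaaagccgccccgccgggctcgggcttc
ID3, chr1:23559502-23559751, minus strand: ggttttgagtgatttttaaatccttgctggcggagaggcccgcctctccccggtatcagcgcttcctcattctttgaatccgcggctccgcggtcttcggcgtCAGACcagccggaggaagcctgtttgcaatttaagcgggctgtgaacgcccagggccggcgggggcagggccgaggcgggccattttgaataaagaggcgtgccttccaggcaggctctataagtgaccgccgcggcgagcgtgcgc
SMAD6, chr15:66701986-66702235, plus strand: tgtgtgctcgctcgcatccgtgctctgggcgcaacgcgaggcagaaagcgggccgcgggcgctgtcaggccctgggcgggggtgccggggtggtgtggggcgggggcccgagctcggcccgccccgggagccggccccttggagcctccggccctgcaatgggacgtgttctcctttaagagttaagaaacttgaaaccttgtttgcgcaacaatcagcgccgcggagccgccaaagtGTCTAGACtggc
The windows of ID1 and ID2 held no match to these letters. That of ID3 held 1 SMAD box, starting 147 bases before the gene, and that of SMAD6 held 1 palindrome, starting 12 bases before it. Of 35116 windows of the same length, 38.0% held a SMAD box, 16.4% GGCGCC and 0.182% the palindrome. A promoter was listed for 9 of the 10 genes. The window of TGFB2 held 2 SMAD boxes and that at the outermost start of SMAD7 held 2, while GGCGCC was found once, before TGFBI. A match of letters is a description and not evidence of binding.

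Values are log2 intensities as the authors normalized them, and a probe was called detected on an array where the authors' detection P was under 0.05. Arrays detected 18767 to 22161 probes, and arrays of the same group correlated at 0.981 to 0.987. The number of arrays, 3 for each group, limits the precision. Whether replicate samples were grown as separate cultures is not given in the sources used here, so P values measure only the spread between these samples, which may be technical. Differences were tested with limma over all 24 arrays, a gene was read from its brightest tested probe, and a gene was called where P adjusted by the Benjamini-Hochberg method over 21580 probes was under 0.05. A positive log2 difference means higher with AMP-18, higher in SCC-61, or higher at 24 h. All 7 keratinocyte markers with a probe, among them KRT5 and KRT14, were detected on all 12 arrays of each line. Their levels differed, with KRT14 at 6.1 to 6.79 in SCC-61, against 11.92 to 12.24 in HaCaT. KRT5 was at 10.03 to 10.7 in SCC-61, against 10.7 to 11.88 in HaCaT. Of 6 fibroblast markers, COL1A1, COL3A1 and LUM were detected on all 12 SCC-61 arrays, and PDGFRA and PDGFRB on none of either line.

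**Figure D1:**
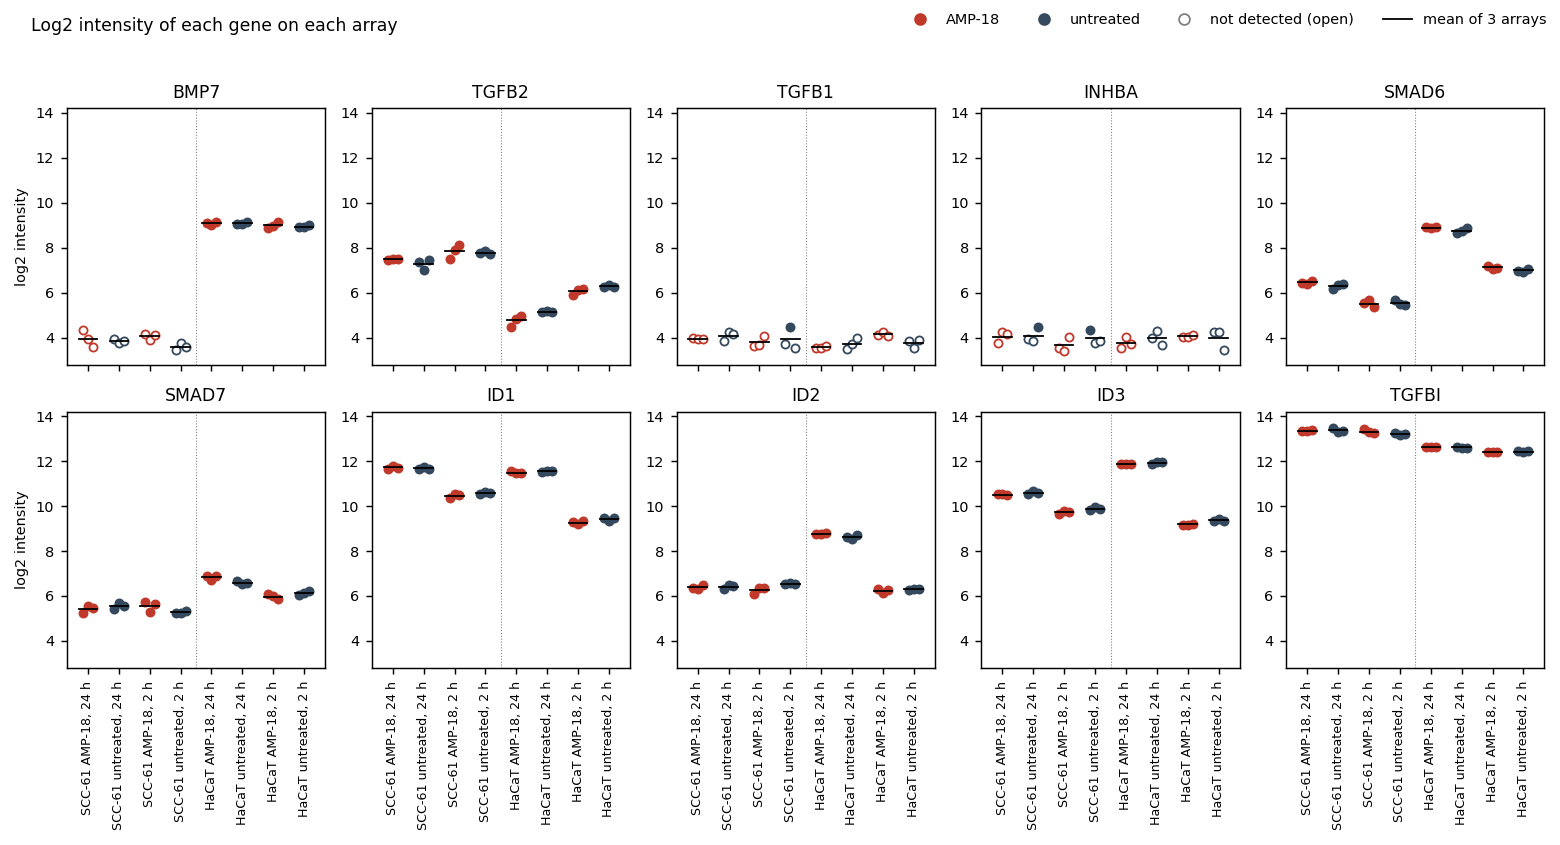
Log2 intensity (vertical axis) of the 10 genes on each of 24 arrays, by line, treatment and time (horizontal axis), with 3 arrays in each group. Points are arrays, open where the probe was not detected, and lines are group means. ID1, ID2, ID3 and SMAD6 lie higher at 24 h than at 2 h in HaCaT, and BMP7 is detected on HaCaT arrays alone.

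Of the 4 ligands, 1 was detected in HaCaT alone, 1 in both lines, and 2 were near background in both. BMP7 (chr20:57168753-57266641), a ligand of the BMP arm, was detected on 0 of 12 SCC-61 arrays and on 12 of 12 HaCaT arrays. Its untreated SCC-61 arrays had log2 values of 3.94, 3.76 and 3.84 at 24 h, against 9.06, 9.07 and 9.16 in untreated HaCaT cells. At 2 h they had 3.44, 3.78 and 3.59 in SCC-61, against 8.92, 8.90 and 9.00 in HaCaT. No SCC-61 value came near a HaCaT value. Measured against the lowest detected signal of each array, BMP7 was at least 26.5-fold lower in SCC-61 at 24 h (adjusted P = 3.03e-25) and at least 23.9-fold lower at 2 h (adjusted P = 3.23e-25). It passed the filter on dim probes through HaCaT alone, so it had to differ between the lines. Within HaCaT its levels stayed close together, between 8.88 and 9.16 over all 12 arrays.

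TGFB2 (chr1:218345336-218444619), the TGF-beta isoform that needs a co-receptor to bind its receptor efficiently, was detected in both lines and was higher in SCC-61. Untreated SCC-61 cells had 7.36, 6.99 and 7.47 at 24 h, against 5.13, 5.20 and 5.12 in HaCaT. At 2 h SCC-61 had 7.78, 7.86 and 7.70, against 6.27, 6.35 and 6.23 in HaCaT. The lines did not overlap at either time, and the difference was 2.12 ± 0.13 (standard error, 3 arrays in each group) on the log2 scale at 24 h (adjusted P = 3.03e-15) and 1.50 ± 0.13 at 2 h (adjusted P = 1.6e-11). TGFB2 was also the single tested gene of the 10 that fell with time, by 0.51 in SCC-61 (adjusted P = 0.0011) and by 1.13 in HaCaT (adjusted P = 4.55e-09).

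TGFB1 (chr19:41330323-41353922), the most studied TGF-beta isoform, has 1 probe here, which was detected on 1 of 24 arrays, with group means between 3.58 and 4.15. INHBA (chr7:41685114-41705406), the beta A subunit shared by activin A and inhibin A, likewise has 1 probe, detected on 2 of 24 arrays, with group means between 3.66 and 4.09. The lowest detected probe on an array lay between 4.28 and 4.48, so both were at the level of background, and no comparison was made for them. A dim probe does not show that a transcript was absent.

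In untreated HaCaT cells ID1, ID2, ID3 and SMAD6 had the largest differences between 24 h and 2 h among the tested genes, all higher at 24 h, and TGFB2 was lower at 24 h in both lines. In untreated SCC-61 cells 5 of the 8 tested genes were higher at 24 h than at 2 h and 1 was lower, and in untreated HaCaT cells 6 were higher and 1 was lower. Over all genes, 57.9% were called in SCC-61 (29.0% called higher) and 64.2% in HaCaT (32.9% called higher), so a time difference was the common case on this array. The labels give no slide, scan or day of handling, and time in culture, starvation and handling cannot be told apart. In bulk RNA, more cells with a transcript and more transcript in each cell cannot be told apart either.

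ID3 (chr1:23557926-23559501) had the largest change with time of the 8 genes, in HaCaT. Untreated SCC-61 cells had 10.53, 10.66 and 10.59 at 24 h, against 9.82, 9.96 and 9.89 at 2 h. In untreated HaCaT cells the values were 11.88, 11.94 and 11.96 at 24 h, against 9.34, 9.42 and 9.33 at 2 h. The times did not overlap in either line, and the difference was 0.70 ± 0.05 in SCC-61 (adjusted P = 4.68e-13) and 2.56 ± 0.05 in HaCaT (adjusted P = 6.76e-27), or 1.63-fold in SCC-61 and 5.91-fold in HaCaT.

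ID1 (chr20:31605289-31606510) was also higher at 24 h in both lines. Untreated SCC-61 cells had 11.67, 11.72 and 11.65 at 24 h, against 10.55, 10.63 and 10.57 at 2 h, and HaCaT cells had 11.50, 11.54 and 11.58 at 24 h, against 9.46, 9.34 and 9.46 at 2 h. The increase was 1.10 ± 0.05 in SCC-61 (adjusted P = 1.24e-16) and 2.12 ± 0.05 in HaCaT (adjusted P = 4.3e-24). A dimmer second ID1 probe was higher at 24 h as well, by 0.86 ± 0.11 in SCC-61 and 1.18 ± 0.11 in HaCaT.

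ID2 (chr2:8682056-8684461) separated the lines. Untreated SCC-61 cells had 6.30, 6.48 and 6.45 at 24 h, against 6.53, 6.56 and 6.52 at 2 h, which did not overlap, but the difference of -0.13 did not pass the test (95% interval -0.29 to 0.03, adjusted P = 0.186). Untreated HaCaT cells had 8.63, 8.55 and 8.70 at 24 h, against 6.26, 6.31 and 6.33 at 2 h, a difference of 2.32 ± 0.08 (adjusted P = 5.05e-21). Of the 8 groups, the HaCaT groups at 24 h therefore stood alone, and the other 6 groups lay together between 6.08 and 6.56. The second ID2 probe gave 0.00 ± 0.09 in SCC-61 and 2.46 ± 0.09 in HaCaT.

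SMAD6 (chr15:66702236-66782849), whose protein competes with the SMADs of the BMP arm, was higher at 24 h in both lines. Untreated SCC-61 cells had 6.18, 6.33 and 6.40 at 24 h, against 5.69, 5.50 and 5.46 at 2 h, and HaCaT cells had 8.64, 8.75 and 8.86 at 24 h, against 6.96, 6.93 and 7.07 at 2 h. The increase was 0.75 ± 0.08 in SCC-61 (adjusted P = 7.73e-09) and 1.76 ± 0.08 in HaCaT (adjusted P = 2.04e-17).

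SMAD7 (chr18:48919853-48950965), which directs TGF-beta receptors to degradation, changed less. Untreated SCC-61 cells had 5.41, 5.69 and 5.56 at 24 h, against 5.25, 5.26 and 5.33 at 2 h, an increase of 0.28 ± 0.11 with an adjusted P of 0.0365. Untreated HaCaT cells had 6.66, 6.54 and 6.58 at 24 h, against 6.04, 6.15 and 6.22 at 2 h, an increase of 0.45 ± 0.11 (adjusted P = 0.000689). The call in SCC-61 was lost without untreated replicate 2 or 3 at 24 h (adjusted P = 0.169 and 0.0726) and without untreated replicate 1 or 2 at 2 h (adjusted P = 0.0893 and 0.0841), and the second SMAD7 probe had -0.10 ± 0.16 in that line. In HaCaT the second probe rose as the first did, by 0.57 ± 0.16 (adjusted P = 0.00333).

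TGFBI (chr5:136028988-136063818), an extracellular matrix protein named for its induction by TGF-beta, had values between 12.39 and 13.46 on all 24 arrays. The highest value of any probe on an array was 13.96. It was higher at 24 h by 0.17 ± 0.04 in SCC-61 (adjusted P = 0.00147) and by 0.18 ± 0.04 in HaCaT (adjusted P = 0.000741). BMP7 did not pass the test of time in HaCaT, with 0.16 ± 0.12 (adjusted P = 0.282), but the same difference was called with only the arrays compared (adjusted P = 0.0316) and with the methods' t-test (adjusted P = 0.0494).

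**Figure D2:**
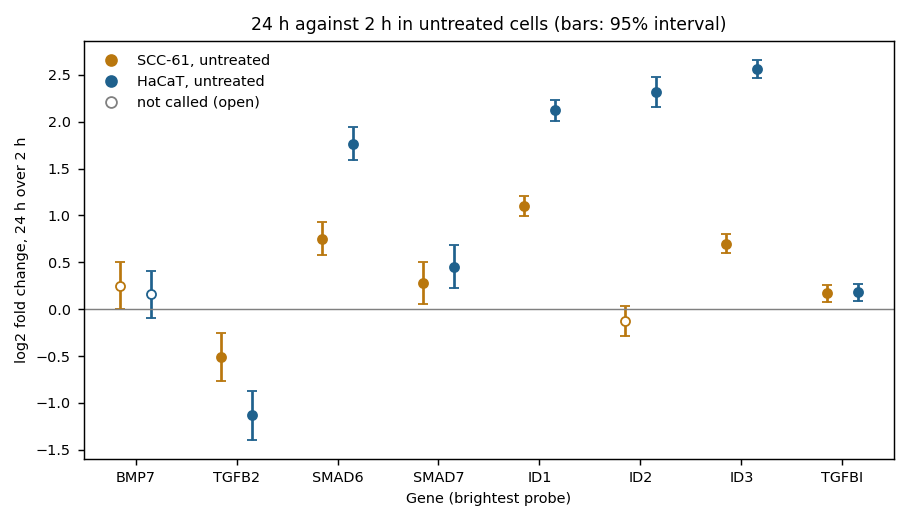
Log2 fold change of 24 h over 2 h (vertical axis) for the 8 tested genes (horizontal axis) in untreated SCC-61 and HaCaT cells, with 3 arrays at each time. Bars are 95% intervals and open points were not called. ID2 is at -0.13 in SCC-61 and 2.32 in HaCaT, TGFB2 is below 0 in both, and BMP7 was detected on no SCC-61 array.

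The change with time was then compared directly between the lines. For 5 of 8 genes the change differed, against 45.6% of all genes. The change in SCC-61 minus that in HaCaT was -2.45 ± 0.11 for ID2 (adjusted P = 6.94e-17), -1.86 ± 0.07 for ID3 (adjusted P = 8.87e-19), -1.02 ± 0.08 for ID1 (adjusted P = 3.64e-12) and -1.01 ± 0.12 for SMAD6 (adjusted P = 4.86e-08). ID1, ID3 and SMAD6 thus rose less in SCC-61, and ID2 was not called there. For TGFB2 the difference was 0.62 ± 0.18 (adjusted P = 0.00565), as it fell further in HaCaT. No difference passed for TGFBI (95% interval -0.14 to 0.12), SMAD7 (95% interval -0.50 to 0.14) or BMP7. Probes of a gene did not always give the same call: the second ID1 probe had a difference of -0.32 ± 0.15 (adjusted P = 0.0915), and the second SMAD7 probe one of -0.67 ± 0.23 (adjusted P = 0.0208).

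The cells given AMP-18 form a second, separate set of arrays for the same time comparison, added after the values of untreated cells were seen. In SCC-61, 4 of 8 genes were called between 24 h and 2 h (54.7% of all genes), with ID1 at 1.25 ± 0.05, SMAD6 at 0.94 ± 0.08 and ID3 at 0.79 ± 0.05, and TGFB2 at -0.35 ± 0.13. ID2 in SCC-61 was again not called, at 0.12 ± 0.08 (adjusted P = 0.215). In HaCaT, 7 of 8 were called (65.9% of all genes), with ID3 at 2.70 ± 0.05, ID2 at 2.54 ± 0.08, ID1 at 2.22 ± 0.05 and SMAD6 at 1.77 ± 0.08. The change differed between the lines for 7 of 8 genes (44.9% of all genes), and for ID2, ID3, ID1 and SMAD6 the differences were -2.42, -1.90, -0.97 and -0.84. SMAD7 at -1.0 ± 0.16 (adjusted P = 5.16e-06) and TGFBI at -0.18 ± 0.06 (adjusted P = 0.0186) were also called here, unlike in untreated cells, and the second SMAD7 probe was not (-0.53 ± 0.23, adjusted P = 0.0652). The second ID1 probe, at 1.38 ± 0.11 in each line, gave a difference of 0.00 ± 0.15 (adjusted P = 0.999), so a difference for ID1 rested on its brighter probe. In SCC-61 SMAD7 had -0.13 ± 0.11 (adjusted P = 0.361) and TGFBI 0.03 ± 0.04 (adjusted P = 0.553), where both had been called higher in untreated cells.

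Markers of other cells moved with time as well. Of 6 fibroblast markers, 3 were detected on all 6 SCC-61 arrays at 24 h and the same number at 2 h, and the log2 of their summed intensity was 8.27 to 8.68 at 24 h, against 7.57 to 7.91 at 2 h. In HaCaT, 2 were detected on all 6 arrays at 24 h, against 0 at 2 h, and the sum was 7.77 to 8.08 at 24 h, against 6.32 to 6.67 at 2 h. LUM, the matrix proteoglycan lumican, was 1 of these, detected on 6 of 6 HaCaT arrays at 24 h (6.99 to 7.50), against 0 of 6 at 2 h (3.60 to 4.15). For 4 endothelial markers the sum was 6.05 to 6.28 at 24 h, against 6.01 to 6.35 at 2 h, in SCC-61, and 7.44 to 7.62 at 24 h, against 5.54 to 6.08 at 2 h, in HaCaT. VWF among them was detected on 6 of 6 HaCaT arrays at 24 h (6.34 to 6.60), against 0 of 6 at 2 h. CDH5 was likewise detected on 6 of 6 HaCaT arrays at 24 h (5.85 to 6.25), against 0 of 6 at 2 h, and on 12 of 12 SCC-61 arrays (4.38 to 5.00). COL1A1 was also detected on 6 of 6 HaCaT arrays at 24 h, against 0 of 6 at 2 h. On the same lists, PDGFRA, PDGFRB and PECAM1 were detected on none of the 24 arrays. The sum of 4 leukocyte markers was 9.74 to 9.92 at 24 h, against 9.30 to 9.51 at 2 h, in SCC-61, and 7.29 to 7.57 at 24 h, against 7.30 to 7.60 at 2 h, in HaCaT. The keratinocyte sum was 12.68 to 12.80 at 24 h, against 12.51 to 12.76 at 2 h, in SCC-61, and 14.06 to 14.21 at 24 h, against 13.53 to 13.62 at 2 h, in HaCaT. The part of these markers in the time differences was not tested.

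Beside BMP7, which had to differ, the other 7 tested genes differed between untreated SCC-61 and HaCaT cells at both times, where 70.3% of all genes differed at 24 h and 63.0% at 2 h. With BMP7, SCC-61 had 3 of the 8 higher and 5 lower at 24 h, and 5 higher and 3 lower at 2 h. The directions of ID2 and ID3 turned between the times. ID2 differed by -2.22 ± 0.08 at 24 h (adjusted P = 9.15e-21) and by 0.23 ± 0.08 at 2 h (adjusted P = 0.0129). ID3 differed by -1.33 ± 0.05 at 24 h (adjusted P = 2.71e-20) and by 0.53 ± 0.05 at 2 h (adjusted P = 1.52e-10). So SCC-61 had less ID2 and ID3 signal than HaCaT at 24 h and more at 2 h.

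For ID1 the lines lay close at 24 h, with 11.67, 11.72 and 11.65 in SCC-61, against 11.50, 11.54 and 11.58 in HaCaT. This difference of 0.14 ± 0.05 (adjusted P = 0.0233) was no longer called without untreated replicate 2 of SCC-61 (adjusted P = 0.0844) or untreated replicate 1 of HaCaT (adjusted P = 0.0841). At 2 h ID1 was higher in SCC-61 by 1.16 ± 0.05 (adjusted P = 9.54e-18). The second ID1 probe gave 1.03 ± 0.11 at 24 h and 1.35 ± 0.11 at 2 h. Both inhibitory SMAD genes were lower in SCC-61 at both times. SMAD6 differed by -2.45 ± 0.08 at 24 h and -1.44 ± 0.08 at 2 h, and SMAD7 by -1.04 ± 0.11 at 24 h and -0.86 ± 0.11 at 2 h. TGFBI was higher in SCC-61, with 13.46, 13.30 and 13.35, against 12.62, 12.60 and 12.60 in HaCaT at 24 h, and the difference was 0.77 ± 0.04 at 24 h and 0.78 ± 0.04 at 2 h. Of the marker genes, COL3A1, a fibroblast collagen, was detected on 12 of 12 SCC-61 and 1 of 12 HaCaT arrays. LUM lay higher in HaCaT at 24 h, with 6.99 to 7.50, against 6.40 to 7.05 in SCC-61. At 2 h LUM was 3.60 to 4.15 in HaCaT, against 4.80 to 5.45 in SCC-61. The fibroblast sum was higher in SCC-61 at both times, as given above, and so was that of the leukocyte markers. CD68 among these was detected on 12 of 12 arrays of each line, with 9.68 to 9.85 in SCC-61, against 6.85 to 7.12 in HaCaT, at 24 h, and PTPRC and CD3E were detected on no array. The endothelial sum at 24 h and the keratinocyte sum at both times were higher in HaCaT, as given above. The part of these markers in the line differences was not tested.

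AMP-18 was compared with no treatment to ask how it acts on tumor and nontransformed cells, and for the 8 genes the differences were at most 1.3-fold wherever the gene was detected. At 24 h in SCC-61, limma called none of the 8 genes (0.344% of all genes were called), and the differences lay between -0.12 and 0.22. An unadjusted P under 0.05 was found for 0 of the 8, against 1260 of all 12221 genes. ID2 had -0.02 (95% interval -0.18 to 0.14) and ID3 had -0.08 (95% interval -0.18 to 0.02). The dimmer second probes had 0.28 ± 0.11 for ID1 (unadjusted P = 0.0138, adjusted P = 0.313 by limma) and -0.22 ± 0.09 for ID2 (unadjusted P = 0.0227, adjusted P = 0.373 by limma), and neither was called.

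In SCC-61 at 2 h, 2 of 8 genes were called, both lower with AMP-18, where 9.49% of all genes were called. ID2 had 6.08, 6.34 and 6.36 with AMP-18, against 6.53, 6.56 and 6.52 untreated, and ID3 had 9.65, 9.76 and 9.74 with AMP-18, against 9.82, 9.96 and 9.89 untreated. The groups did not overlap for either gene. The difference was -0.27 ± 0.08 for ID2 (adjusted P = 0.0272) and -0.17 ± 0.05 for ID3 (adjusted P = 0.0255), which is 1.21-fold lower for ID2 and 1.13-fold lower for ID3. The second ID2 probe was also lower, at -0.39 ± 0.09 (adjusted P = 0.00591). ID1, the third of these target genes, had -0.12 ± 0.05 and was not called (adjusted P = 0.191).

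These 2 calls rested on few arrays. Without AMP-18 replicate 1, ID2 had -0.18 (adjusted P = 0.195) and ID3 had -0.14 (adjusted P = 0.118). Without untreated replicate 2 the adjusted P was 0.0911 for ID2 and 0.153 for ID3, and without untreated replicate 3 it was 0.0651 for ID2 and 0.069 for ID3. Without untreated replicate 1 ID2 had an adjusted P of 0.0722. SMAD7, at 0.28 ± 0.11 (adjusted P = 0.12), was called without AMP-18 replicate 2 (adjusted P = 0.0216), and TGFBI, at 0.12 ± 0.04 (adjusted P = 0.09), without AMP-18 replicate 3 (adjusted P = 0.027). BMP7 had 4.15, 3.89 and 4.12 with AMP-18, against 3.44, 3.78 and 3.59 untreated. These values gave an adjusted P of 0.0178, but BMP7 was detected on none of these arrays, so it was not counted and no fold is given. The change of the AMP-18 effect between 24 h and 2 h in SCC-61 was called for none of the 8 (2.11% of all genes). Of the 8, 4 detected genes had an unadjusted P under 0.05, as had 1894 of all 12221 genes.

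In HaCaT, AMP-18 changed none of the 8 genes past the threshold at either time. At 24 h, 1.89% of all genes were called and 0 of the 8. TGFB2 had 4.49, 4.84 and 4.96 with AMP-18, against 5.13, 5.20 and 5.12 untreated, a difference of -0.38 ± 0.13 that did not pass (adjusted P = 0.124). TGFB2 and SMAD7 had an unadjusted P under 0.05, as did the second ID1 probe, at 0.32 ± 0.11 (adjusted P = 0.12). Of all 12221 genes, 1963 had an unadjusted P under 0.05 in this comparison. At 2 h limma called 0 of 12221 genes (0%), although 934 had an unadjusted P under 0.05, ID1 and ID3 among them. ID3 had 9.15, 9.17 and 9.22 with AMP-18, against 9.34, 9.42 and 9.33 untreated, and the groups did not overlap. Its difference of -0.18 ± 0.05 (adjusted P = 0.266) was about the size of that in SCC-61, and no difference of the AMP-18 effect on ID3 between the lines passed the test (0.01, 95% interval -0.13 to 0.15, adjusted P = 0.968).

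No AMP-18 effect on the 8 genes was called as differing between the lines, at 24 h (0.205% of all genes called) or at 2 h (4.27%), or between 24 h and 2 h in HaCaT (0.221%). Leaving out BMP7, which SCC-61 arrays did not detect, an unadjusted P under 0.05 was found for 2, 2 and 1 of the other 7 in these 3 tests. Over all 12221 genes it was found for 1451, 2280 and 1373. The methods' t-test called 0 of the 8 after adjustment in these tests and in each comparison of AMP-18 with no treatment. Few probes of any gene passed it. Of all 21580 probes it called 19 for AMP-18 in SCC-61 at 2 h, and 0 in SCC-61 at 24 h and in HaCaT at either time. For the AMP-18 effect between lines it called 0 probes at 24 h and 551 at 2 h. Between 24 h and 2 h in HaCaT it called 2. For ID2 at 2 h the difference between the lines was -0.20 from the first probe (adjusted P = 0.375) and -0.48 from the second (adjusted P = 0.0295).

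**Figure D3:**
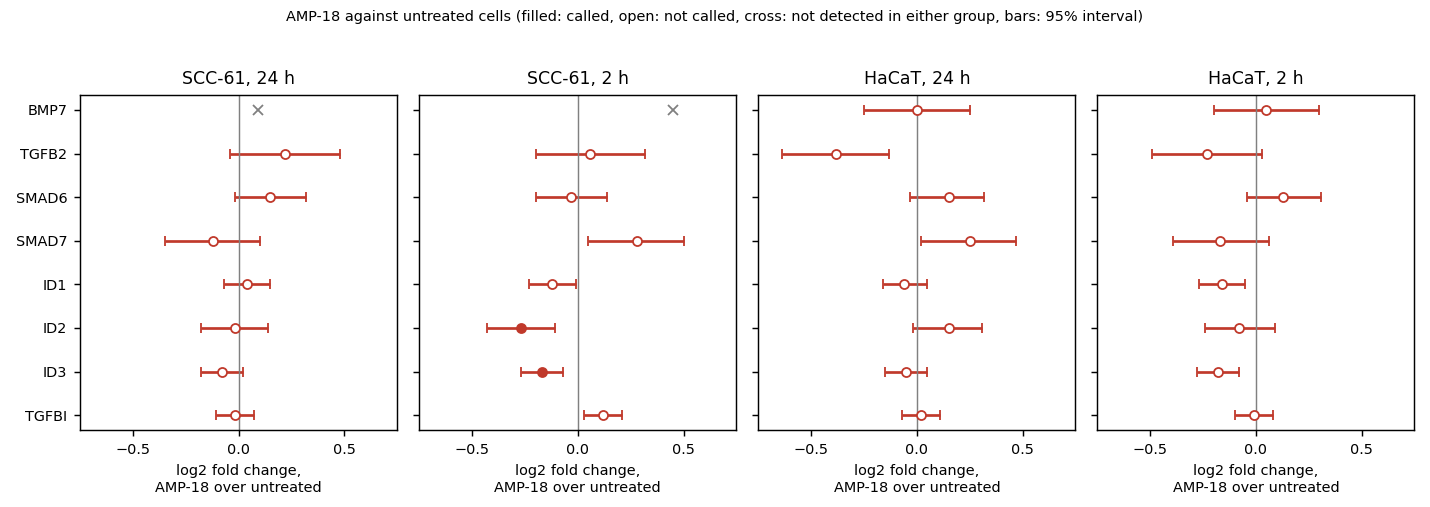
Log2 fold change of AMP-18 over untreated cells (horizontal axis) for the 8 tested genes (vertical axis) in each line and at each time, with 3 arrays in each group. Filled points were called, bars are 95% intervals and crosses mark BMP7 in SCC-61, which no array detected. ID2 at -0.27 and ID3 at -0.17 in SCC-61 at 2 h are the filled points.

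The rest of the pathway was read from a list of 122 other genes in 8 roles, of which 117 had a probe and 80 were tested. Between 24 h and 2 h in untreated cells, SCC-61 had 32 of the 80 higher and 16 lower, and HaCaT had 32 higher and 23 lower, where 57.9% of all genes were called in SCC-61 and 64.2% in HaCaT. The median difference was 0.14 in SCC-61 and 0.13 in HaCaT, where the median over all genes was 0.00 in SCC-61 and 0.02 in HaCaT. Of 7 secreted inhibitors, 3 rose and 2 fell in SCC-61, and 4 rose and 3 fell in HaCaT. The largest changes among them were falls, while SOST rose by 0.85 in HaCaT. FST (follistatin, which binds activins and some BMPs) fell by 2.01 in SCC-61 (adjusted P = 2.66e-24) and fell by 2.76 in HaCaT (adjusted P = 4.52e-28). BMPER, a secreted BMP-binding regulator, was at least 1.67-fold lower at 24 h in SCC-61, where it was not detected, and fell by 1.79 in HaCaT. Of 9 genes of latency and activation, 6 rose and 1 fell in SCC-61, and 5 rose and 3 fell in HaCaT. THBS1 (thrombospondin-1), an activator of latent TGF-beta, fell by 1.07 in SCC-61 (adjusted P = 4.33e-14) and fell by 2.83 in HaCaT (adjusted P = 9.95e-25). LTBP3 rose by 1.56 in SCC-61, and BMP1 rose by 1.03 in SCC-61 and 0.94 in HaCaT.

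Among receptors and SMADs the largest called changes were increases. BMPR2, the type II BMP receptor, was higher at 24 h by 0.67 in SCC-61 (adjusted P = 1.47e-08) and by 1.54 in HaCaT (adjusted P = 6.96e-17), and ACVR1, a type I BMP receptor, by 0.66 in SCC-61 and 0.77 in HaCaT. SMAD3, a SMAD of the TGF-beta arm, rose by 0.87 in each line. SMAD2 was lower at 24 h, with -0.46 in SCC-61 (adjusted P = 0.00631) and -0.36 in HaCaT (adjusted P = 0.0301). These SMAD2 calls were lost without single arrays, and that in HaCaT also with the methods' t-test. Of 6 SMAD genes, 1 rose and 1 fell in SCC-61, and 3 rose and 1 fell in HaCaT. Of 10 receptor and co-receptor genes, 4 rose and 1 fell in SCC-61, and 3 rose and 2 fell in HaCaT, against 57.9% of all genes called in SCC-61 and 64.2% in HaCaT. PMEPA1, an intracellular inhibitor induced by TGF-beta, rose by 0.85 in SCC-61 and 0.90 in HaCaT.

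Target genes other than the 10 moved in both directions. Of 14 TGF-beta targets, 5 rose and 6 fell in SCC-61, and 6 rose and 4 fell in HaCaT, where 29.0% of all genes were called higher in SCC-61 and 32.9% in HaCaT. CDKN2B, the cell cycle inhibitor p15, rose by 1.48 in SCC-61 (adjusted P = 2.61e-14) and by 4.36 in HaCaT (adjusted P = 4.11e-26), and BHLHE40, a transcriptional repressor, by 1.69 in SCC-61 and 2.59 in HaCaT. HAS2, a hyaluronan synthase, fell by 1.59 in SCC-61 and fell by 1.37 in HaCaT. Of 8 BMP targets, 2 rose and 2 fell in SCC-61, with HEY1 at 0.96 and MSX1 at -1.29, and 5 rose and 1 fell in HaCaT, with the homeobox genes DLX5 at 1.68 and DLX3 at 1.25.

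**Figure D4:**
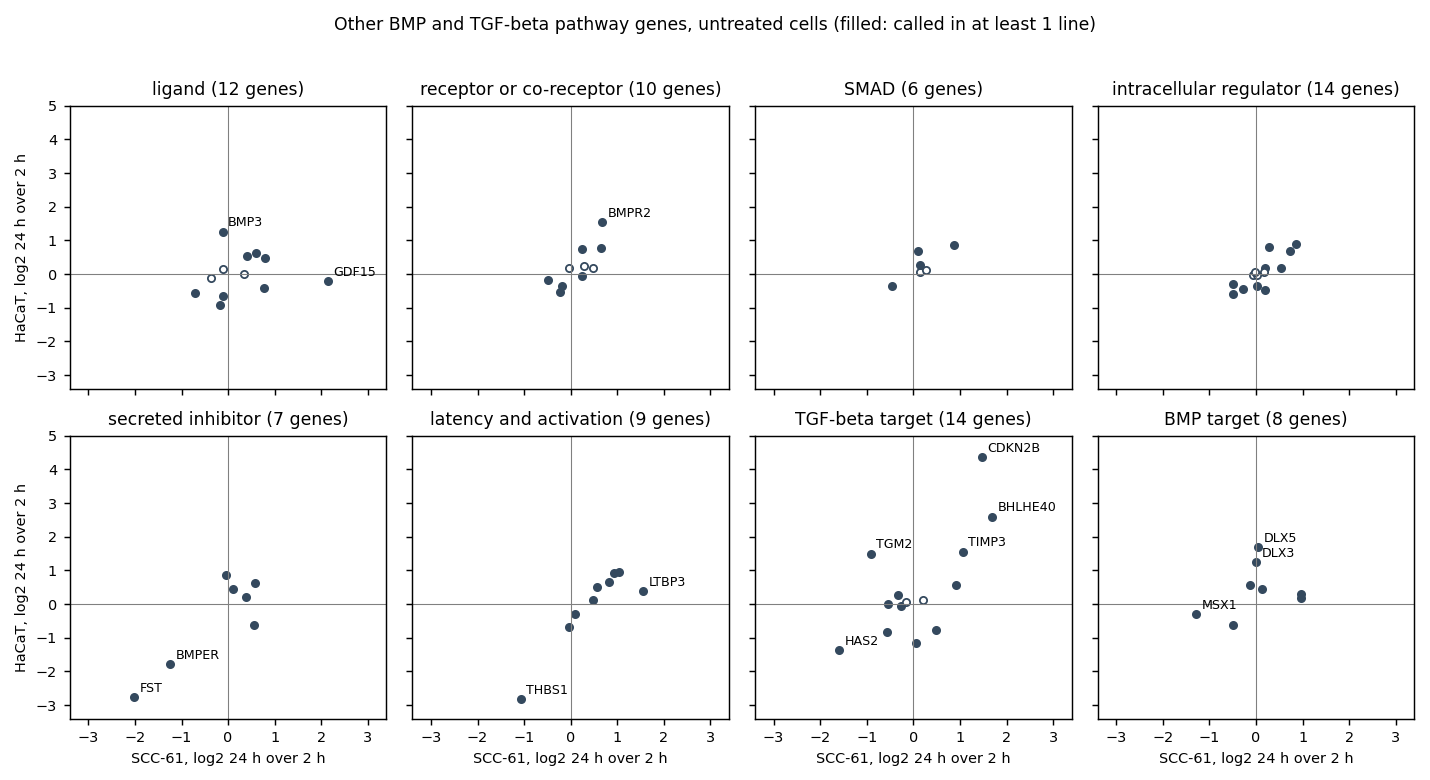
Log2 fold change of 24 h over 2 h in untreated SCC-61 (horizontal axis) and untreated HaCaT cells (vertical axis) for the 80 other pathway genes, by role. Each point is a gene, filled where it was called in at least 1 line. CDKN2B is at 1.48 in SCC-61 and 4.36 in HaCaT, and FST is at -2.01 in SCC-61 and -2.76 in HaCaT.

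Between the untreated lines, 33 of the 80 genes were called higher in SCC-61 and 24 lower at 24 h, against 34 higher and 25 lower at 2 h, where 70.3% of all genes were called at 24 h and 63.0% at 2 h. TGFBR2, the type II TGF-beta receptor, was lower in SCC-61, with a difference of -1.92 ± 0.06 at 24 h (adjusted P = 1.03e-22) and -2.23 ± 0.06 at 2 h (adjusted P = 4.35e-24), while the co-receptor TGFBR3, which presents TGFB2 to the receptor, was higher by 1.79 ± 0.09 at 24 h and 2.10 ± 0.09 at 2 h. SMAD4, the common partner SMAD, was lower, with a difference of -0.82 ± 0.07 at 24 h and -0.70 ± 0.07 at 2 h. GDF15, a stress-induced distant relative of the TGF-betas, was detected in SCC-61 and not in untreated HaCaT cells, and was at least 25.5-fold higher in SCC-61 at 24 h and at least 5.62-fold higher at 2 h. As it passed the filter through SCC-61 alone, it had to differ. The crosslinking enzyme TGM2, a TGF-beta target, was higher in SCC-61 by 2.23 ± 0.09 at 24 h and 4.63 ± 0.09 at 2 h.

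With AMP-18 in SCC-61 at 2 h, 12 of the 80 other genes were higher and 1 lower, with a median difference of 0.05 against 0.00 over all genes, of which 9.49% were called. These included 3 of 7 secreted inhibitors, NBL1 (0.32 ± 0.05, adjusted P = 0.000435), FSTL3 (0.35 ± 0.09) and FST (0.18 ± 0.05), and 4 of 9 genes of latency and activation, among them LTBP3 (0.43 ± 0.09), FURIN (0.43 ± 0.12) and BMP1 (0.33 ± 0.08). SMAD3 had 0.31 ± 0.07 and PMEPA1 0.31 ± 0.06. No ligand (0 of 12) and no BMP target (0 of 8) was called. In the other roles 1 of 10 receptors and co-receptors, 1 of 6 SMADs, 2 of 14 intracellular regulators and 2 of 14 TGF-beta targets were called. Alternatives were run for 12 of the 13 called genes, up to 3 for each role, among them STRAP, which was lower. With the methods' t-test each of these 12 lost its call. NBL1, LTBP3, BMP1, SMAD3 and PMEPA1 kept their calls in every other alternative, and FSTL3, FST and FURIN also lost theirs without single arrays. The methods' t-test called only 19 of all 21580 probes in this comparison. At 24 h in SCC-61 limma called 0 of the 80, and 9 had an unadjusted P under 0.05, against 1260 of all 12221 genes. At 2 h in HaCaT it likewise called 0, with 4 detected genes under 0.05, against 934 of all genes. The methods' t-test called no probe after adjustment in either. In HaCaT at 24 h, 1 was higher and 4 lower (1.89% of all genes were called), and FST had the largest of these differences, -0.46 ± 0.05 (adjusted P = 8.76e-07), a call lost with the methods' t-test (adjusted P = 0.276). That test called no probe there after adjustment. The AMP-18 effect was called as differing between the lines for 2 of the 80 at 24 h (0.205% of all genes). At 2 h it was called for 4 of the 80 (4.27% of all genes). FST, named here after its values were seen, differed by 0.31 ± 0.07 at 24 h (adjusted P = 0.0398) and 0.35 ± 0.07 at 2 h (adjusted P = 0.00233). The call at 2 h was kept in all 11 alternatives and without each of 12 arrays (highest adjusted P = 0.00976), whereas that at 24 h was lost in 6 of 11, among them the methods' t-test (adjusted P = 0.201), and in 8 of the 12 fits that each dropped a single array (highest adjusted P = 0.105).

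The genes whose pattern was most like that of ID1 were sought over the 8 group means, with the mean of each line taken off, among 4162 other genes that varied enough. ARID5B, a chromatin-associated factor, came first (Pearson r = 0.9994 over 8 group means), followed by VAV3, IDNK, EPHX2 and CYP26A1, an enzyme that degrades retinoic acid, all at 0.9991 or above. SMAD6 had 0.9909, ID3 0.9758 and ID2 0.8767, at ranks 222, 677 and 1648. The 8 means share their arrays for every gene and fall mainly into 2 times, so that many genes correlate highly.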

How the data were processed

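RNA of 24 samples (3 for each line, treatment and time) was amplified to biotinylated cRNA and hybridized to Illumina HumanHT12v4 arrays. The submitters' processing notes name GenomeStudio 2011.1. The authors deposited a table of log2 intensities, which look quantile-normalized from their equal medians (4.22 on each array), although the method is not given in the sources used here. Normalization to equal distributions hides any change common to all genes. The authors also deposited detection p-values per probe and array.

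Values were used as deposited. Gene symbols came from the platform annotation, and coordinates and promoter windows from RefSeq (GRCh38.p14). Of 47323 probes, the 21580 that some group detected on each of its 3 arrays (P under 0.05) were kept. With limma 3.58.1 in R 4.3.3, 1 mean was fitted for each of the 8 groups by lmFit and moderated by eBayes with a trend (16 residual and 12.62 prior degrees of freedom), with two-sided P values adjusted by the Benjamini-Hochberg method over all kept probes. A gene below background in all groups of a comparison was not called. Where 1 group alone was below background, a fold is a lower bound, in which the dim arrays entered at their own value or at their lowest detected probe, whichever was larger. The script was tested on simulated data.

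The 10 genes, the list of 122 other pathway genes and the marker lists were chosen with earlier results of these data known. Other pathway genes are named where they were among the 3 largest called changes of their role in a comparison, with their values in the other line or time beside them, and for the AMP-18 effect between lines FST was chosen after its values were seen. No list was tested as a set. Pairing was checked through residuals of samples with the same replicate number. Over 12 pairs these correlated at -0.16 to 0.05, so the numbers did not pair the samples. Results were recomputed with all probes, with probes under a detection P of 0.01 on every array, with cyclic loess, quantile normalization, a constant of 16 added to linear values, only the arrays compared, a replicate block, no trend, array weights, the methods' t-test with equal variances, the mean of a gene's probes, and leaving out each array. Some listed genes are not reported here.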

Additional observations from a re-analysis of the deposited data

Results flagged for a closer look

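For 5 of the 8 tested genes the change between 24 h and 2 h in untreated cells differed between the lines by the test of the difference itself (limma, adjusted P over all probes). The change in SCC-61 minus that in HaCaT was -2.45 for ID2, -1.86 for ID3, -1.02 for ID1 and -1.01 for SMAD6, and 0.62 for TGFB2, which fell further in HaCaT. ID1, ID3 and SMAD6 rose further in HaCaT, and ID2 rose in HaCaT and was not called in SCC-61. For ID1 this rested on its brighter probe. The second ID1 probe had -0.32 ± 0.15 (adjusted P = 0.0915 by limma) and was not called. Over all genes, 45.6% had such a difference. No group held more than 3 samples, so single samples far from the others were not sought.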

How the results depend on the processing

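Of 36 called pairs of gene and comparison, 30 kept their call and direction under every alternative run, and of 68 uncalled pairs 62 stayed uncalled. These counts include BMP7, whose outcome was partly fixed. Within SCC-61 it was below background and barred from a call in every alternative. Between the untreated lines it had to differ, as it passed the filter through HaCaT alone. The count of 2 genes for AMP-18 in SCC-61 at 2 h was 0 without a filter on detection, 1 without a trend, 0 with only the arrays compared and 0 with the methods' t-test (which called 19 of 21580 probes), and it ranged from 0 to 3 when single arrays were left out. With cyclic loess the count was again 2, but ID3 was lost (-0.15, adjusted P = 0.0505) and TGFBI was called (0.14, adjusted P = 0.0417). The count of 6 genes for time in SCC-61 was 3 with the methods' t-test, where TGFB2 (adjusted P = 0.0608) and TGFBI (adjusted P = 0.0667) were lost beside SMAD7. The count of 0 for the AMP-18 effect between lines at 2 h was 1 with the mean of a gene's probes (ID2) and ranged from 0 to 1 with single arrays left out, being 1 (SMAD7) without SCC-61 AMP-18 replicate 2. The cause was not tested. With the mean of its probes in place of the brightest, PPM1A changed by -0.15 with time in SCC-61 (adjusted P = 0.207), where the brightest probe gave 0.72. The call of SMAD7 for time in SCC-61 was also lost with the mean of its probes (0.09, adjusted P = 0.521). The replicate block changed no count of these genes, with 2 called for AMP-18 in SCC-61 at 2 h, but with it the AMP-18 effect on FST between the lines at 24 h lost its call (adjusted P = 0.0646). Cyclic loess moved the median of all genes by less than 0.1 on the log2 scale. Quantile normalization left it the same in every comparison. The deposited values already look quantile-normalized, so that alternative could hardly change a call. TGFB1 and INHBA were limited by signal, since their probes were near background in every group.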
